A study of Mus musculus with 9 samples.

Results

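The fibroblast growth factors (FGFs) are a family of small proteins of which most act as paracrine ligands. The 10 members described here, Fgf1, Fgf2, Fgf6, Fgf7, Fgf9, Fgf10, Fgf12, Fgf13, Fgf16 and Fgf18, were taken by name from the 38293 genes of the count table, and all 10 were found. They are part of the 22 mouse FGF genes, and the other 12 are given beside them. RNA came from the ventricles of mouse pups at postnatal day 7 and was sequenced after poly(A) selection. The 5 control libraries were from Arid1a f/f littermates, which carry the floxed Arid1a gene and no Cre. The 4 cKO libraries were from αMHC-Cre;Arid1a f/f pups, in which the cardiomyocyte promoter αMHC drives Cre recombinase, so that Arid1a, the ARID-domain subunit of the chromatin remodeller SWI/SNF, is deleted in cardiomyocytes and should remain in the other cells of the ventricle. Every pup of both groups carried the floxed allele, the background was C57BL/6J and pups of both sexes were used. No control carried Cre alone, so Cre and the deletion cannot be told apart. The comparison asks which FGF genes differ when the postnatal ventricle loses Arid1a in its cardiomyocytes.

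Secreted FGFs bind heparan sulfate and a tyrosine kinase receptor (FGFR) on the target cell, and the receptor signals mainly through the adaptor FRS2 and the ERK kinase cascade. The ligands fall into subfamilies with different receptor preference: Fgf7 and Fgf10 are mesenchymal ligands for the epithelial splice form of FGFR2, Fgf9, Fgf16 and Fgf18 prefer the mesenchymal splice forms and FGFR3, and Fgf1 binds all receptors. In the developing heart, Fgf9 and Fgf16 are known as growth factors for cardiomyocytes and Fgf10 for the migration of epicardium-derived fibroblasts. Fgf12 and Fgf13 are FGFs by sequence only. They belong to the FGF homologous factors, which are not secreted, stay in the cell and bind the cytoplasmic tail of voltage-gated sodium channels. The label FGF ligand therefore fits 8 of the 10 members.

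RefSeq promoter windows of GRCm38.p6 were matched by symbol for 8 of the 10 members, in 14 windows since Fgf12 and Fgf13 have several start sites. The 250 bases before the start are printed for the secreted member that rose and the secreted member that fell by the larger fold, in lower case with each CpG dinucleotide in capitals, 5′ to 3′ on the gene's strand. The Fgf7 window is chr2:126034408-126034657 on the plus strand, in an intron of the gene Fam227b, and the Fgf18 window is chr11:33147401-33147650 on the minus strand, outside any annotated gene.
Fgf7: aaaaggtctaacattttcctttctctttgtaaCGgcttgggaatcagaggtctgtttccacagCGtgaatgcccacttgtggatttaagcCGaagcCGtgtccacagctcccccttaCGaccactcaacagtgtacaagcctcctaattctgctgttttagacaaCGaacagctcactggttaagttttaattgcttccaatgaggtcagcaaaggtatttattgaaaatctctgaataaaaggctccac
Fgf18: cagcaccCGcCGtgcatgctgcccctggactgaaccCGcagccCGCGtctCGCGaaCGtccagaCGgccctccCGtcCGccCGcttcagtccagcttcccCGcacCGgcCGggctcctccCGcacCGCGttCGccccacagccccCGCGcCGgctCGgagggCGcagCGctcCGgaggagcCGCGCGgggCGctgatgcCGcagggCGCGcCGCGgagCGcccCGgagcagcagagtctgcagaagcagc
The Fgf7 window held 6 CpG dinucleotides and 43.6% G and C, and the Fgf18 window held 37 and 77.2%. Of all 32851 promoter windows of that length, 49.6% had fewer CpG dinucleotides than the Fgf7 window and 97.8% had fewer than the Fgf18 window, beside a median of 6. The core TEAD motif GGAATG, searched on both strands, was not in either window. Among the 8 members searched it was found only in 1 window of Fgf12, beside 12.6% of all windows. The ERR half-site AAGGTCA was found in no window of these 8 members, beside 4.08% of all windows. These counts describe the letters of the windows only.

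The libraries held 31011055 to 40073801 counts each. Arid1a was at 139.8 ± 8.84 CPM (counts per 1e6 counts of the TMM-scaled total, SD, n = 5) in controls and 106.4 ± 5.44 CPM (SD, n = 4) in cKO ventricles without overlap, a log2 fold change of −0.39 (SE 0.06) in RNA of the whole ventricle. Cardiomyocyte markers were abundant in every library, with a summed level of 7 genes between 36465 and 49967 CPM. The libraries also fell into a pair of sets by the ribosomal protein copy Rps3a3, which was low in controls 1 and 2 and in cKO libraries 1, 2 and 3, and high in controls 3, 4 and 5 and in cKO library 4, so values within the sets are given where they matter. In bulk RNA, fewer cells of a type and less RNA per cell cannot be told apart.

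Fgf7 and Fgf16 rose and Fgf13 and Fgf18 fell in cKO ventricles, and the other 4 members that could be tested did not pass the test. A gene was called when its Benjamini-Hochberg adjusted p from the quasi-likelihood test of edgeR, over all 15318 genes tested, was under 0.05 and its fold change over 1.5. Of the 10 members 8 passed the filter on low counts, and Fgf6 and Fgf10 did not. The 2 members called higher and 2 called lower stand beside 4.01% of all tested genes called higher and 2.72% called lower, or 6.72% in either direction. The CPM of 5 members, the 4 called and Fgf9, did not overlap between the groups, beside 16.7% of all tested genes. The fold changes ran from 4.24 to −1.35 on the log2 scale with a median of 0.01, beside 0.01 over all tested genes. Fgf7 was the gene with the 7th largest fold change of the 614 called higher, whereas Fgf16 was at rank 401 of 614, Fgf18 at 141 and Fgf13 at 307 of the 416 called lower.

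**Figure D1:**
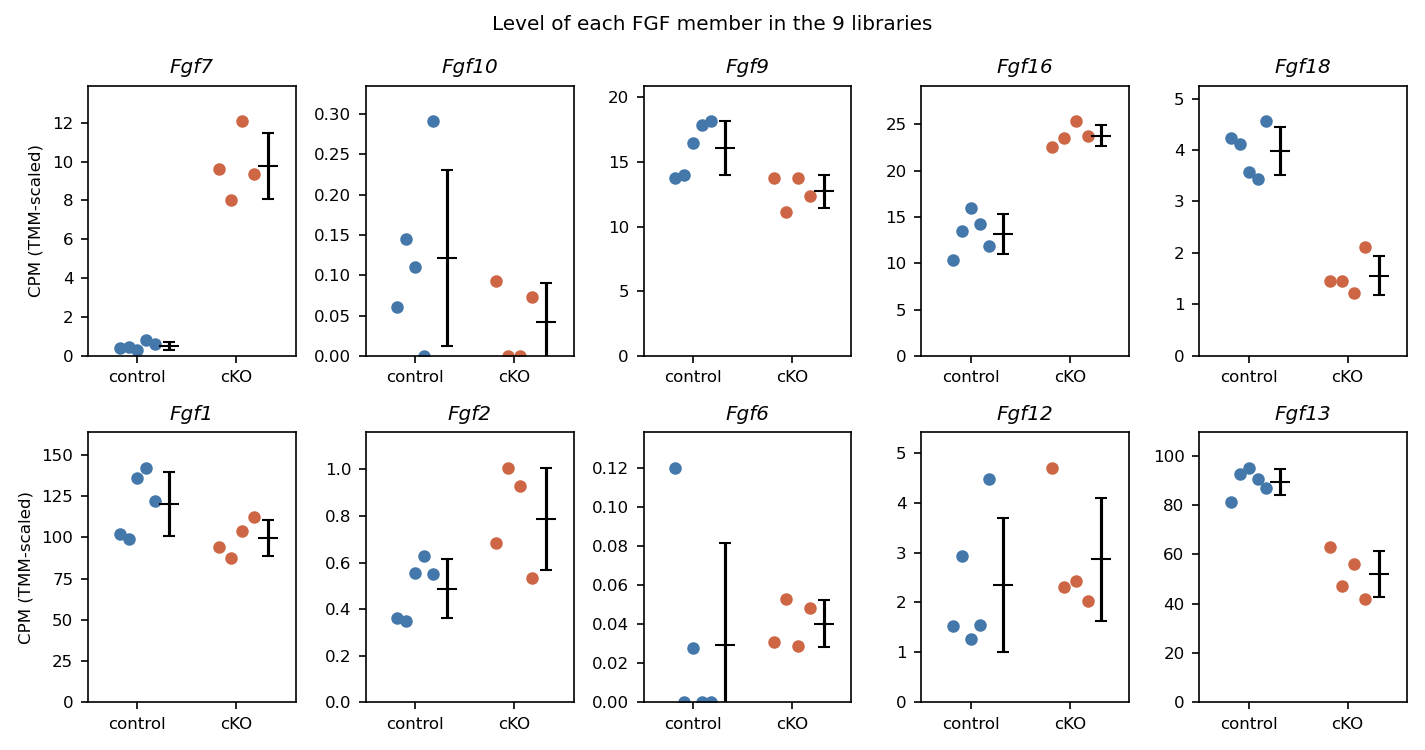
Level of each FGF member in CPM (linear axes, each panel with its own scale) in the 5 control libraries (blue) and the 4 cKO libraries (orange), with the mean and SD in black (bars cut at 0). The cKO libraries lie above every control for Fgf7 and Fgf16 and below every control for Fgf18, Fgf13 and, by a narrow margin, Fgf9.

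Fgf7 (ENSMUSG00000027208), also known as keratinocyte growth factor, is annotated at chr2:126034658-126091185 of GRCm38, the assembly called mm10. It read 0.391, 0.463, 0.305, 0.818 and 0.614 CPM across control libraries 1 to 5, whereas cKO libraries 1 to 4 read 9.61, 8.03, 12.1 and 9.35 CPM. Each cKO library was above every control, and the lowest of them, cKO replicate 2, was several times the highest control. In reads, this was 11 to 26 counts per control library and 303 to 417 per cKO library. Mean levels were 0.518 ± 0.202 CPM (SD, n = 5) in controls against 9.77 ± 1.69 CPM (SD, n = 4) in cKO ventricles. On the log2 scale the change was 4.24 ± 0.24 (SE), or 18.9-fold, and the adjusted p was 7.5e-07. Leaving out each library in turn gave 4.09 to 4.46, and the Rps3a3-low libraries alone gave 4.52 with an adjusted p of 0.000249. The high set, with 1 cKO library, had 9.35 CPM against 0.305 to 0.818 CPM.

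Fgf7 lies wholly within Fam227b, a gene on the opposite strand at chr2:125983483-126152004, so reads of one could have been counted for the other where the strand setting differed. Fam227b had 0 counts in the 5 control libraries and 0, 2, 1 and 0 in cKO replicates 1 to 4. The nearest tested gene on the side of the Fgf7 start, Galk2, an N-acetylgalactosamine kinase, was at 22.1 CPM in controls and 21.9 CPM in cKO, for a log2 fold change of −0.02 ± 0.07 (SE) and an adjusted p of 0.90. On the other side Dtwd1 was at 5.16 and 6.74 CPM, for a log2 fold change of 0.39 ± 0.13 (SE) and an adjusted p of 0.0719, with no overlap between the groups. Neither neighbour was called.

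The other genes of the Fgf7 subfamily were at or near 0. Fgf10 (ENSMUSG00000021732), at chr13:118669791-118792115, had 2, 5, 4, 0 and 9 counts across control libraries 1 to 5, whereas cKO libraries 1 to 4 had 3, 0, 0 and 3, and the groups overlapped. A count of 0 allows up to 3 counts, which is 0.0726 to 0.097 CPM in these libraries for counting error alone. Without the filter on low counts the log2 fold change of Fgf10 was −1.48 (SE 0.99, adjusted p = 0.423), so no difference was detectable at this depth. Fgf3 had 1 count in controls and 3 in cKO, and Fgf22 had 0 and 3, each total over all libraries of the group.

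Markers of the cells that could hold Fgf7 RNA were read beside it, since Fgf7 is known as a product of mesenchymal cells. The paper names cardiomyocytes as a source of Fgf7 during development, and cardiomyocyte markers are given further below. Of the 8 fibroblast markers, 4 passed an adjusted p under 0.05 upward, as did 8.25% of all tested genes, Col1a1 by 0.52, Tcf21 by 0.48, Col1a2 by 0.40 and Postn by 0.33 on the log2 scale, and none was called at 1.5-fold, although Col1a1 was without control replicate 1 (0.60). Their summed level was 6923 to 8213 CPM in controls and 8559 to 9507 CPM in cKO ventricles, 1.19 times higher on average without overlap, and no marker of the list was at 0. Fgf7 was 18.8 times higher by the same ratio of means. Dcn, Lum, Pdgfra and Col3a1 differed by −0.04, 0.06, 0.11 and 0.14 on the log2 scale and did not pass. With 1 library left out, Col1a1 no longer passed without control replicates 3 or 5 or cKO replicates 1, 2 or 3 (adjusted p up to 0.0946), Tcf21 without control replicate 3 (0.0504) and Postn without control replicate 2 or cKO replicate 4 (up to 0.0601). In the Rps3a3-low libraries alone Col1a1 and Tcf21 did not pass (adjusted p of 0.23 and 0.284), while Col1a2 and Postn did (0.0486 and 0.0256). The part of the fibroblast markers in the level of Fgf7 was not tested.

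The summed levels of epicardial, macrophage, endothelial, mural and atrial markers overlapped between the groups, although the mean sum of macrophage markers was 1.32 times and that of atrial markers 1.48 times that of controls. Of 6 epicardial markers 1, Tbx18, was called higher with a log2 fold change of 0.59, beside 4.01% of all tested genes. Wt1 fell by 0.40 on the log2 scale (adjusted p = 0.0128) but did not pass in the Rps3a3-low libraries alone (adjusted p of 0.227). The Tbx18 call was lost without control replicates 1 or 2 or cKO replicates 1 or 4, where the log2 fold change was as low as 0.48. None of 6 mural and none of 6 macrophage markers passed with all libraries, although the macrophage marker Adgre1 was called higher without cKO replicate 4 (0.66). Among 7 endothelial markers Npr3 rose by 0.49 and Tek fell by 0.28 on the log2 scale without a call. Npr3 did not pass without cKO replicates 3 or 4 (adjusted p up to 0.0688). Tek did not pass in the Rps3a3-low libraries alone (adjusted p of 0.286) or with the replicate number as a block (0.0762). Cardiomyocyte markers summed to 41889 to 49967 CPM in controls and 36465 to 41715 CPM in cKO ventricles, 0.854 times on average. The groups did not overlap, by a narrow margin. Of the 7 genes, 6 had a negative log2 fold change and 1 a positive one, with a median of −0.23. Only 2 of 7, Myl2 and Pln, passed with all libraries, where 8.03% of all tested genes passed downward. They fell by 0.43 and 0.45 on the log2 scale, and Pln did not pass in the Rps3a3-low libraries alone (adjusted p of 0.162). The part of the cardiomyocyte markers in the falls of Fgf13 and Fgf18 was not tested. Of 5 atrial markers 4 were tested, and 1 was called higher, beside 4.01% of all tested genes. It was Myl7, by 1.20 ± 0.22 (SE) on the log2 scale with an adjusted p of 0.00493. The list had 2 positive and 2 negative log2 fold changes, with a median of 0.01. No atrial marker was called lower with all libraries, although Sln, a regulator of the calcium pump, was without cKO replicate 1 (−2.31). The plot of levels relative to the control mean sets these sums beside the called members.

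Of the Fgf9 subfamily, Fgf16 rose, while Fgf9 was lower by a difference that did not pass. Fgf16 (ENSMUSG00000031230), at chrX:105764279-105774939, is a ligand made in the heart after birth. It read 10.4, 13.5, 15.9, 14.2 and 11.9 CPM across control libraries 1 to 5, whereas cKO libraries 1 to 4 read 22.6, 23.5, 25.3 and 23.8 CPM. The groups did not overlap, and the 4 cKO libraries were closer to each other than the controls were. Mean levels were 13.2 ± 2.15 CPM (SD, n = 5) in controls against 23.8 ± 1.16 CPM (SD, n = 4) in cKO ventricles. On the log2 scale the change was 0.85 ± 0.11 (SE), or 1.81-fold, and the adjusted p was 0.00039. Leaving out each library gave 0.78 to 0.93.

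Fgf9 (ENSMUSG00000021974), at chr14:58070547-58112720, read 13.8, 14.0, 16.5, 17.9 and 18.1 CPM across control libraries 1 to 5, whereas cKO libraries 1 to 4 read 13.7, 11.1, 13.7 and 12.3 CPM. The groups did not overlap, but cKO replicates 1 and 3 lay just below control replicate 1. Its cKO to control difference was −0.33 ± 0.11 (SE) on the log2 scale, and the adjusted p was 0.0656. The Wald test of DESeq2 gave −0.34 with an adjusted p of 0.0316, and edgeR gave 0.0399 without control replicate 1 and 0.0477 without control replicate 2. In the Rps3a3-low libraries alone the log2 fold change was −0.11 with an adjusted p of 0.768. Fgf20, the remaining gene of the subfamily, had 3 counts over the 5 controls and 0 over the 4 cKO libraries.

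Fgf18 (ENSMUSG00000057967), at chr11:33117430-33147400 on the minus strand, is a ligand best known from bone and cartilage growth. It read 4.24, 4.11, 3.57, 3.43 and 4.56 CPM across control libraries 1 to 5, whereas cKO libraries 1 to 4 read 1.46, 1.46, 1.22 and 2.11 CPM. Every cKO library was below every control, with cKO replicate 4 the highest of its group. Mean levels were 3.98 ± 0.472 CPM (SD, n = 5) in controls against 1.56 ± 0.381 CPM (SD, n = 4) in cKO ventricles. On the log2 scale the change was −1.35 ± 0.19 (SE), or 2.54-fold lower, and the adjusted p was 0.00049. Leaving out each library gave −1.53 to −1.24. Its close relatives were low: Fgf8 had 0 counts in all 9 libraries, and Fgf17 had 25 counts over the controls and 5 over the cKO libraries, with overlap and a log2 fold change of −2.04 ± 0.95 (SE) and an adjusted p of 0.224 without the filter.

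Fgf1 (ENSMUSG00000036585, chr18:38838673-38929472), the most abundant secreted member, did not pass the test. It read 101.9, 99.3, 135.9, 142.3 and 122.4 CPM across control libraries 1 to 5, whereas cKO libraries 1 to 4 read 94.1, 87.7, 104.1 and 112.2 CPM, with a log2 fold change of −0.27 ± 0.12 (SE) and an adjusted p of 0.137. The groups overlapped, and within each group the Rps3a3-low libraries were the lower ones. The difference was −0.14 with the library set as a term and −0.08 (adjusted p = 0.736) in the Rps3a3-low libraries alone.

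Fgf2 (ENSMUSG00000037225), at chr3:37348346-37410108, read 0.361, 0.348, 0.554, 0.629 and 0.55 CPM across control libraries 1 to 5, whereas cKO libraries 1 to 4 read 0.684, 1.01, 0.927 and 0.533 CPM. Its cKO to control difference was 0.69 ± 0.29 (SE) on the log2 scale, and the adjusted p was 0.135. The fit on the Rps3a3-low libraries alone gave 1.30 ± 0.39 (SE) with an adjusted p of 0.111. The 3 Rps3a3-low cKO libraries were above every control and the high cKO library was not. The 3′ end of Fgf2 overlaps Nudt6 on the opposite strand, which was at 9.40 CPM in controls and 10.3 CPM in cKO (log2 fold change 0.14, SE 0.18, adjusted p = 0.653), so some reads could belong to either gene.

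Fgf6 (ENSMUSG00000000183, chr6:127015586-127028187), a ligand known from skeletal muscle, had 4, 0, 1, 0 and 0 counts across control libraries 1 to 5, whereas cKO libraries 1 to 4 had 1, 2, 1 and 2. All libraries but control replicate 1 were within the 3 counts that a count of 0 allows, and the unfiltered log2 fold change was 0.40 ± 1.05 (SE) with an adjusted p of 0.853. Of its subfamily, Fgf4 had 0 counts in all 9 libraries and Fgf5 had 10 counts over the controls and 25 over the cKO libraries, of which 16 were in cKO replicate 4. Of 8 skeletal muscle markers, 3 could be tested and 1 was called, beside 6.72% of all tested genes in either direction. Myl1, a myosin light chain, was called higher with a log2 fold change of 1.28 (adjusted p = 0.0484) that was lost in 7 of 9 fits that left out a library (all but those without control replicate 2 or cKO replicate 1, adjusted p up to 0.133) and in the Rps3a3-low libraries alone (0.478). Tnnt3, a fast skeletal troponin T, was at 0.692 to 0.997 CPM in controls and 1.19 to 1.46 CPM in cKO, without overlap, and its log2 fold change of 0.62 ± 0.20 (SE) had an adjusted p of 0.0529. Myog, a myogenic transcription factor below the filter, had 1 count over the 5 controls and 5, 5, 3 and 3 counts in cKO libraries 1 to 4, without overlap, with an adjusted p of 0.0274 in the fit without the filter. Myod1, a related factor, was at 0 in all libraries. The part of skeletal muscle RNA in the level of Fgf6 was not tested.

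Per length of the union of exons (RPKM), the order of the members changed between the groups. In controls Fgf13 at 22.2 ± 1.33 RPKM (SD, n = 5) and Fgf1 at 22.0 ± 3.56 RPKM led and did not differ beyond their spread, followed by Fgf16 at 8.01 RPKM, Fgf9 at 3.45 and Fgf18 at 3.36 RPKM, of which the last pair did not differ beyond their spread. Fgf12 at 0.378 and Fgf7 at 0.160 RPKM were also within each other's spread, and Fgf2 at 0.0720, Fgf10 at 0.0264 and Fgf6 at 0.00636 RPKM came last, Fgf10 and Fgf6 within their spread. In cKO ventricles Fgf1 at 18.2 ± 1.98 RPKM (SD, n = 4) led, Fgf16 at 14.5 and Fgf13 at 13.0 RPKM were within each other's spread, and Fgf7 at 3.01 RPKM stood beside Fgf9 at 2.74 RPKM within their spread. Below them were Fgf18 at 1.31, Fgf12 at 0.462, Fgf2 at 0.116, Fgf10 at 0.00902 and Fgf6 at 0.00867 RPKM, the last pair again within their spread. Fgf7 thus moved from rank 7 to rank 4 of the 10 members, and Fgf18 from rank 5 to rank 6.

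The summed level of the 8 secreted members overlapped between the groups, at 37.1 ± 4.62 RPKM (SD, n = 5) in controls and 39.9 ± 2.93 RPKM (SD, n = 4) in cKO ventricles. The make-up of that sum differed. The share of Fgf7 was 0.227% to 0.603% in controls and 6.76% to 8.79% in cKO ventricles, and that of Fgf16 was 19.1% to 24.8% and 34.1% to 39.1%. The share of Fgf1 went from a mean of 59.2% to 45.6%, that of Fgf9 from 9.31% to 6.87% and that of Fgf18 from 9.23% to 3.30%. The ranges of all 5 shares did not overlap between the groups. A share can fall because another rises, so these values describe the mixture and not each gene.

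**Figure D2:**
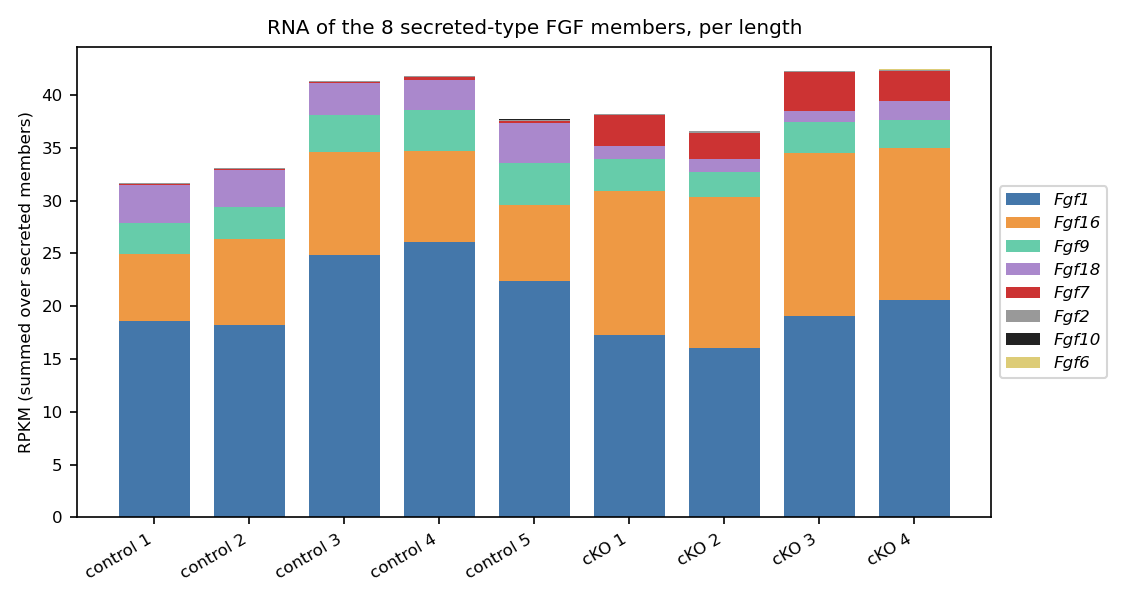
Stacked bars of the RPKM of the 8 secreted-type FGF members in each of the 9 libraries, starting at 0. The total overlaps between the 5 control and the 4 cKO libraries, while the red Fgf7 segment is visible mainly in cKO libraries (6.76% to 8.79% of the sum) and the orange Fgf16 segment is larger there.

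Among the FGF homologous factors, Fgf13 fell and Fgf12 did not pass the test. Fgf13 (ENSMUSG00000031137), at chrX:59062145-59568071, read 81.4, 92.5, 95.1, 90.7 and 86.7 CPM across control libraries 1 to 5, whereas cKO libraries 1 to 4 read 63.0, 47.3, 56.1 and 41.9 CPM. The groups did not overlap, and cKO replicate 4 was the lowest. Mean levels were 89.3 ± 5.36 CPM (SD, n = 5) in controls against 52.1 ± 9.36 CPM (SD, n = 4) in cKO ventricles. On the log2 scale the change was −0.78 ± 0.11 (SE), or 1.72-fold lower, and the adjusted p was 0.00047. Leaving out each library gave −0.88 to −0.69. The pseudogene Gm14890 on the opposite strand inside Fgf13 also fell, from 2.28 to 0.872 CPM (log2 fold change −1.39, SE 0.24, adjusted p = 0.00203), and its reads cannot be told apart from those of Fgf13 without the strand setting. Fgf13 and Fgf16 are both on the X chromosome, and pups of both sexes were used. With Xist level as a term the log2 fold change was −0.78 for Fgf13 and 0.84 for Fgf16, with adjusted p of 0.00124 and 0.000513.

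Fgf12 (ENSMUSG00000022523), at chr16:28160098-28753068, read 1.53, 2.93, 1.27, 1.54 and 4.46 CPM across control libraries 1 to 5, whereas cKO libraries 1 to 4 read 4.70, 2.31, 2.43 and 2.03 CPM. Control replicate 5 and cKO replicate 1 were the high libraries of their groups, and the groups overlapped. Its cKO to control difference was 0.29 ± 0.39 (SE) on the log2 scale, and the adjusted p was 0.670. Leaving out each library moved that difference between −0.05 and 0.64. It was 0.49 in the Rps3a3-low libraries alone (adjusted p = 0.594). Of the other homologous factors, Fgf11 was at 6.41 CPM in controls and 7.97 CPM in cKO (log2 fold change 0.31, SE 0.16, adjusted p = 0.230), and Fgf14 at 1.68 and 1.29 CPM (−0.39, SE 0.19, adjusted p = 0.192). Of the 4 homologous factors, 1 was called, beside 6.72% of all tested genes.

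Sodium channel alpha subunits, to which these factors bind, passed the test in both directions. Of 7 such genes 6 were tested, 1 was called higher and 1 lower, with a median log2 fold change of −0.10, where 4.01% of all tested genes were called higher and 2.72% lower. Scn10a was called lower, with 4.54 ± 0.874 CPM (SD, n = 5) in controls against 1.75 ± 0.455 CPM (SD, n = 4) in cKO ventricles, for a log2 fold change of −1.37 ± 0.21 (SE) and an adjusted p of 0.0008. Scn4a, the skeletal muscle channel, was called higher by 1.002 (SE 0.21, adjusted p = 0.00764), with cKO replicate 4 at 7.94 CPM inside the range of the controls and the other cKO libraries at 14.0 to 18.6 CPM.

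Of the endocrine FGFs, Fgf23, the phosphate-regulating hormone, had counts mainly in cKO libraries. It had 1, 0, 0, 5 and 1 counts across control libraries 1 to 5, whereas cKO libraries 1 to 4 had 3, 24, 19 and 37, so cKO replicate 1 lay within the controls. It did not pass the filter on low counts. Without the filter the log2 fold change was 3.59 ± 0.77 (SE) with an adjusted p of 0.00694, and the adjusted p ranged from 0.000774 to 0.089 over the fits that kept the gene. Fits with a filter could keep Fgf23 only through its counts in cKO libraries, so their adjusted p is no further support for a rise. Fgf21 had 4 counts over the controls and 7 over the cKO libraries, and Fgf15 had 0 and 1. The co-receptors of these hormones, Kl and Klb, were at a mean of 0.0511 and 0.0430 CPM in controls and 0.04996 and 0.0561 CPM in cKO.

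Among the receptors only Fgfr1 passed an adjusted p under 0.05, as did 16.3% of all tested genes. Fgfr1 read 62.9, 54.9, 55.5, 51.0 and 60.4 CPM across control libraries 1 to 5, whereas cKO libraries 1 to 4 read 63.0, 73.5, 66.3 and 72.3 CPM, for a log2 fold change of 0.27 ± 0.08 (SE) and an adjusted p of 0.0317. The groups did not overlap, but control replicate 1 and cKO replicate 1 nearly met, and the adjusted p rose to between 0.0554 and 0.0867 without control replicates 2, 3 or 4 or cKO replicates 2, 3 or 4. Fgfr2, whose epithelial splice form is the receptor of Fgf7 and Fgf10, was at 6.69 ± 1.96 CPM (SD, n = 5) and 6.38 ± 2.23 CPM (SD, n = 4), for a log2 fold change of −0.07 ± 0.26 (SE) and an adjusted p of 0.892, whose sign depended on the library left out. Gene counts do not separate its splice forms. Fgfr3 differed by 0.08 (SE 0.14, adjusted p = 0.751) and the kinase-less Fgfrl1 by 0.07 (SE 0.11, adjusted p = 0.718) on the log2 scale, and Fgfr4, at a mean of 0.201 and 0.196 CPM, was below the filter. No receptor was called.

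Of 22 FGF-binding and heparan sulfate genes, 21 were tested, none was called, beside 6.72% of all tested genes, and the median log2 fold change was 0.07. The 3 that passed an adjusted p under 0.05 are a share near the 16.3% of all tested genes and are no result about the list. Sulf2, which removes sulfate groups from heparan sulfate, fell from 156.9 to 106.2 CPM without overlap, with a log2 difference of −0.56 ± 0.10 (SE, adjusted p = 0.00197), and it passed the adjusted p in every fit that left out a library. That difference was just under 1.5-fold, and Sulf2 was called lower without control replicate 3 (−0.60), cKO replicate 2 (−0.61) or cKO replicate 4 (−0.64). The glypican Gpc4 fell by 0.46 and the syndecan Sdc1 rose by 0.46 on the log2 scale, with adjusted p of 0.0194 and 0.0206. Both were lost when 1 library was left out, Gpc4 without control replicate 5 or cKO replicate 2 (adjusted p up to 0.0519) and Sdc1 without control replicate 3 or cKO replicates 2 or 4 (up to 0.0635).

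Downstream genes were counted beside the 8.25% of all tested genes that passed an adjusted p under 0.05 upward and the 8.03% that passed downward. Of 19 adaptors and cascade genes, all tested, none was called and 4 passed the adjusted p, all lower. Among them were Frs2, the docking protein of the FGF receptors, by −0.30 (adjusted p = 0.0116), Grb2 by −0.27 (0.0124) and Plcg1 by −0.26 (0.0063) on the log2 scale. The list's median was −0.08, and the 4 passing genes were 21.1% of it. Of 12 feedback inhibitors 11 were tested with a median of 0.12, and 4 passed, or 36.4%, all higher. Cbl, a ubiquitin ligase that removes active receptors, was called with a log2 fold change of 0.64 ± 0.13 (SE) and an adjusted p of 0.00493. Dusp6, the ERK phosphatase, was at 31.7 to 35.3 CPM in controls and 39.7 to 47.2 CPM in cKO, for a log2 fold change of 0.38 ± 0.07 (SE) and an adjusted p of 0.00264. Spry1 rose by 0.30 (adjusted p = 0.0134) and Spry4 by 0.44 (adjusted p = 0.0471), the latter not in 7 of 9 fits that left out a library (all but those without control replicates 1 or 2, adjusted p up to 0.12).

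Of 11 ERK-responsive transcription factors 10 were tested, 4 were called higher and none lower, with a median log2 fold change of 0.71, beside 4.01% of all tested genes called higher. Egr2 was at 0.753 to 1.84 CPM in controls and 2.52 to 6.17 CPM in cKO, for a log2 fold change of 1.999 ± 0.30 (SE) and an adjusted p of 0.000796. Egr1 was at 20.8 to 40.9 CPM and 48.9 to 98.0 CPM, for a log2 fold change of 1.17 ± 0.27 (SE) and an adjusted p of 0.0184. Myc rose by 0.61 (SE 0.14, adjusted p = 0.0109), and its fold change was under 1.5-fold without control replicate 2 or cKO replicates 1 or 2 (lowest log2 value 0.52). Etv4, one of the ETS factors known as FGF targets, was called with a log2 fold change of 0.81 ± 0.23 (SE) and an adjusted p of 0.0307, but its groups overlapped and the call was lost without control replicates 2, 3, 4 or 5 or cKO replicates 2 or 4, with adjusted p up to 0.101. Its relatives Etv5 and Etv1 differed by 0.40 (adjusted p = 0.0969) and −0.04 (adjusted p = 0.880). Fos and Ier2 were not called with all libraries but were called higher without control replicate 1 (1.11 and 0.68). Egr1, Egr2 and Myc are known to respond to many stimuli besides FGFs. In the Rps3a3-low libraries alone, 5 of the 19 genes of the pathway lists that passed an adjusted p under 0.05 still did, and the 4 called FGF members all did.

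**Figure D3:**
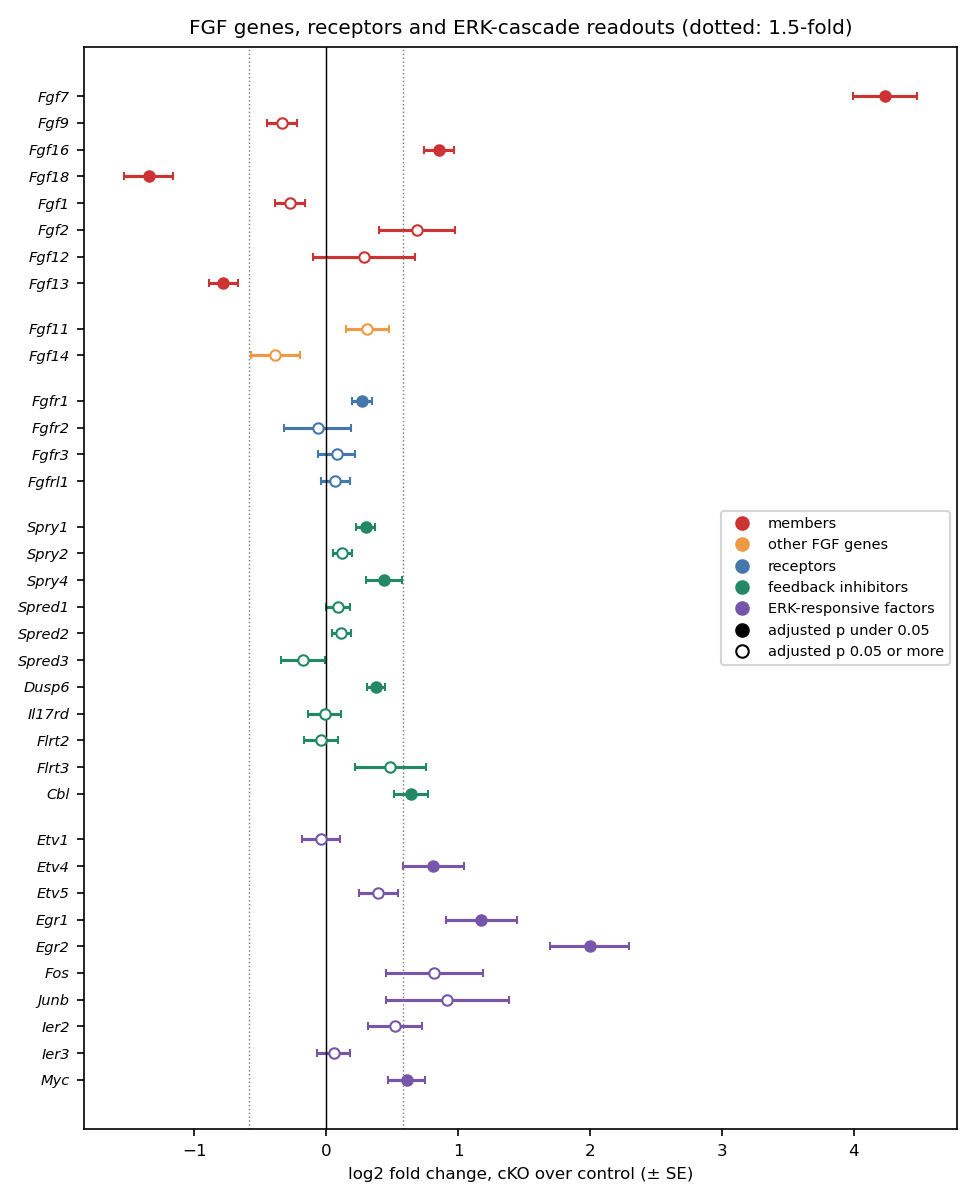
Log2 fold change of cKO over control with its SE for every tested FGF member, other FGF gene, receptor, feedback inhibitor and ERK-responsive factor; filled points have an adjusted p under 0.05 and dotted lines mark 1.5-fold. Fgf7 at 4.24 stands to the right of all others, the receptors lie between −0.07 and 0.27, and Egr2 at 1.999 is the largest of the ERK-responsive factors.

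Finally, the genes whose log2 CPM followed Fgf7 and Fgf18 most closely over the 9 libraries were listed from 12605 protein-coding genes with a mean of at least 1 CPM. The correlations share the difference between the groups and are given as a description. For Fgf7 these were Sytl2 (Pearson r = 0.992), a synaptotagmin-like protein of vesicle transport, Dip2b (0.990), Grik3 (0.986), a kainate receptor subunit, Pcare (0.985), known from photoreceptor cilia, and Slc35f1 (0.985). Sytl2 went from 11.3 to 52.3 CPM, Grik3 from 0.429 to 6.89 CPM and Pcare from 0.255 to 6.85 CPM, log2 fold changes of 2.21, 4.01 and 4.74. None of the 5 is an FGF gene. For Fgf18 they were Stard13 (r = 0.982), Alpl (0.979), the alkaline phosphatase of mineralizing tissue, C1qtnf7 (0.975), Ewsr1 (0.973) and Prkd1 (0.971), a protein kinase D. Alpl went from 13.2 to 5.65 CPM and Prkd1 from 13.3 to 6.75 CPM, log2 fold changes of −1.22 and −0.98, while Ewsr1 did not itself pass the test (−0.12, adjusted p = 0.124).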

How the data were processed

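The authors deposited raw read counts per gene in 1 table that covers the 9 libraries, and no normalization had been applied. Per the study's methods the libraries were made with a stranded mRNA kit and sequenced as single-end reads, and the submitters' processing notes name STAR 2.4.2a, HTSeq 0.6.1 and mm10. The strand setting and the annotation release are not given in the sources used here. The table held 0 other sample columns.

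Symbols and union exon lengths came from GENCODE M21 on GRCm38 (36429 of 38293 identifiers had a symbol). In R 4.3.3, genes were kept by filterByExpr (minimum count 10), scaled by TMM and tested by edgeR 4.0.16 with its quasi-likelihood fit with genotype as the only term, all tests two-sided. Standard errors (SE) were computed from the log2 fold change and its F statistic. CPM and RPKM are the counts divided by the scaled total and the exon length. The script was tested on simulated counts. Labels do not say how pups were spread over litters, and intervals for a count of 0 cover counting error only.

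The members and the lists of receptors, pathway genes and markers were chosen with earlier results of these data known. Genes were named by rule: all members, other FGF genes with counts, receptors, up to 4 called genes of a list with the largest change, genes overlapping or next to Fgf7, and the 5 genes most correlated with Fgf7 and with Fgf18. Genes named outside this rule were chosen after their values were seen: Fgf4 and Fgf8, list and marker genes that passed only the adjusted p or did not pass, Nudt6 and Gm14890, which overlap members, and Arid1a and Rps3a3 as checks. Alternatives were DESeq2 1.42.0, RLE and upper-quartile scaling, other filters, the replicate number as a block, the Rps3a3 set or Xist level as a term, the Rps3a3-low libraries alone, and leaving out each library. The values of 2 single genes of the lists are not reported here.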

Additional observations from a re-analysis of the deposited data

Results flagged for a closer look

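Fgf2 differed in opposite directions in the library sets defined by Rps3a3. On the log2(CPM + 0.5) scale the cKO libraries were higher by 0.677 in the Rps3a3-low set and lower, at −0.06, in the high set, where cKO has 1 library. Fgf2 lies between 0.348 and 1.01 CPM, so the added 0.5 shrinks these differences, and the edgeR fit on the low set alone gave 1.30 (adjusted p = 0.111). The difference between the sets was not tested. Fgf12 stood out in cKO replicate 1 at 4.70 CPM, against 2.43 CPM in the next library, a gap of 0.85 of the range of the group. Chance gives such a gap in about 1 of 20 groups, and 16 groups were looked at, the 8 tested members in control and cKO.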

How the results depend on the processing

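Over 143 fits of the 8 tested members under alternatives, 139 kept their direction and their side of the threshold. Of the others 3 were Fgf9, which passed an adjusted p under 0.05 with DESeq2 (0.0316), without control replicate 1 (0.0399) and without control replicate 2 (0.0477), and 1 was Fgf12, which did not pass and whose log2 fold change turned to −0.054 without cKO replicate 1 and ran up to 0.643 without control replicate 5. The counts of 2 members called higher and 2 called lower held in every alternative. The number of genes called, 1030, was 620 with the Rps3a3-low libraries alone, of which 518 were shared, with fewer libraries by construction, and 2493 without the fold threshold. Leaving out 1 library gave 909 to 1171 calls. For the other 60 tested genes that are named, 975 of 1080 fits kept direction and side, 74 no longer passed and 11 newly passed. The sign turned in 20 fits of 8 genes, none of which passed in either fit. The log2 fold change of Fgfr2 turned to 0.0619 with the replicate block, 0.17 with the library set as a term and 0.0677 in the Rps3a3-low libraries alone, and it ran from −0.344 to 0.0715 over the fits without 1 library. With the set as a term Fgfr3 turned to −0.0255, Etv1 to 0.0405 and Nudt6 to −0.000611, and in the low set alone Fgfr3 turned to −0.0038, Nudt6 to −0.00356 and Dcn to 0.0271. Leaving out 1 library gave −0.0206 to 0.157 for Fgfr3, −0.0411 to 0.116 for Fgfrl1, −0.157 to 0.102 for Etv1, −0.155 to 0.0337 for Dcn, −0.073 to 0.136 for Lum and −0.0461 to 0.0129 for Galk2. Deviations of the same-numbered libraries from their group means correlated by 0.023, 0.036, 0.011 and 0.232. They were not compared with those of differently numbered libraries, so whether replicate numbers pair the samples was not tested. With the replicate number as a block 888 genes were called, 827 of them shared, and the members called higher and lower were again 2 and 2. Levels below about 0.1 CPM rest on at most 3 counts per library, which limits Fgf6, Fgf10 and most of the other FGF genes.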
